A study of Mus musculus with 8 samples.

Results

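Voltage-gated calcium and sodium channel genes were taken as the protein-coding genes of chromosomes 1 to 19 whose symbol begins with Cacna, Cacnb, Cacng or Scn followed by a digit, in the GENCODE vM1 annotation of the mm9 mouse genome. There were 39 such genes among 21287 protein-coding genes of those chromosomes. They comprised 9 calcium channel pore genes, 4 genes of the α2δ subunits, 4 of the cytoplasmic β subunits, 8 of the γ family, 10 sodium channel pore genes and 4 sodium channel β subunit genes. Membership rested on the symbol alone and used no measured value.

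Voltage-gated channels open when the membrane depolarises. Sodium channels carry the upstroke of the action potential, and calcium channels turn it into calcium entry that triggers transmitter release, shapes dendritic excitability and reaches gene expression in the nucleus. A large α1 subunit forms the pore, and the α2δ and β subunits set its delivery to the membrane and its gating. Several γ proteins (TARPs) are better known as partners of AMPA-type glutamate receptors.

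HTT ChIP-seq, which recovers DNA with an antibody against huntingtin, was done on cortex of male mice in 4 groups with 1 ChIP library each. The age given is 4 months, which in the methods text is the age at injection. The groups were Htt+/+ (wild-type) and HttQ111/+ mice (heterozygous for a knock-in allele with an expanded CAG repeat), each either untreated or given 500 µg of an antisense oligonucleotide (ASO) against Htt into the cerebral ventricle on 1 side, with cortex of the injected side taken 4 weeks after injection. Untreated mice had no injection, so the ASO and the procedure cannot be told apart. Cortex of 3 mice was pooled for each ChIP according to the labels, the methods text gives a smaller pool, and the 4 input samples of the series were not analysed here. With 1 library per group no spread between replicates exists within a group. No test between groups was made: a fit of ASO with genotype as a block would leave 1 residual degree of freedom, and peak lists give no reads where a library had no peak. The labelled tissue could not be checked against marker expression in peak lists.

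Groups of 4 values are given below in the order Htt+/+ untreated, Htt+/+ ASO, HttQ111/+ untreated, HttQ111/+ ASO, and the peak totals in that order were 44664, 41323, 47957 and 40505. Depth was shallow, with 2 to 4 reads at the summit for 79.6% to 87.3% of peaks. The HttQ111/+ ASO library stood apart, with a start-site peak at 4.01% of all genes. A peak was called a start-site peak where its summit lay within 1 kb of the annotated 5′ end of a gene, and a gene-body peak where it lay elsewhere between the ends of the gene. Fold enrichment is the deposited ratio of signal to background at the summit, and it is relative to each library's own scaling. Intervals are 95% counting intervals, which cover counting error only, since neighbouring peaks and sequencing reads are not independent. Those of ratios over all 4 libraries together also count a region found in several libraries more than once. The intervals of ratios do not cover the spread between genes.

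Few channel genes carried HTT signal at the start site, and the number was near that of all genes in 3 libraries. A start-site peak was present at 4, 9, 9 and 5 of the 39 genes, or 10.3% (Wilson interval 4.06 to 23.6), 23.1% (12.6 to 38.3), 23.1% (12.6 to 38.3) and 12.8% (5.60 to 26.7). Over all protein-coding genes the shares were 12.9%, 16.4%, 18.5% and 4.01%. Genes of similar length, meaning other protein-coding genes at most 25% longer than a channel gene, or shorter by the same factor, would have given 5.93, 8.33, 9.12 and 1.26 of 39. In HttQ111/+ ASO cortex the 5 channel genes, among them Cacna1s, Cacna2d1, Cacnb2 and Cacng2, therefore stood beside 1.26 for genes of similar length and 1.64 for genes with like GC content around the start. With so few genes that interval was wide, from 5.60% to 26.7%. The comparison shares were 4.01% of all genes, 3.23% at similar length and 4.2% at like GC content around the start.

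A start-site peak was found in 2 or more libraries at 6 genes, among them Cacna1h, Cacna2d1, Cacng2 and Cacng6. These were 15.4% of the channel genes (Wilson interval 7.25 to 29.7), beside 12.8% of all genes and 6.58 of 39 for genes of similar length. A further 11 genes had one in 1 library only, and 22 had none. Of the 30 start-site peaks, 10 had the summit upstream and 20 downstream of the start, and they held 3 to 14 reads.

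**Figure D1:**
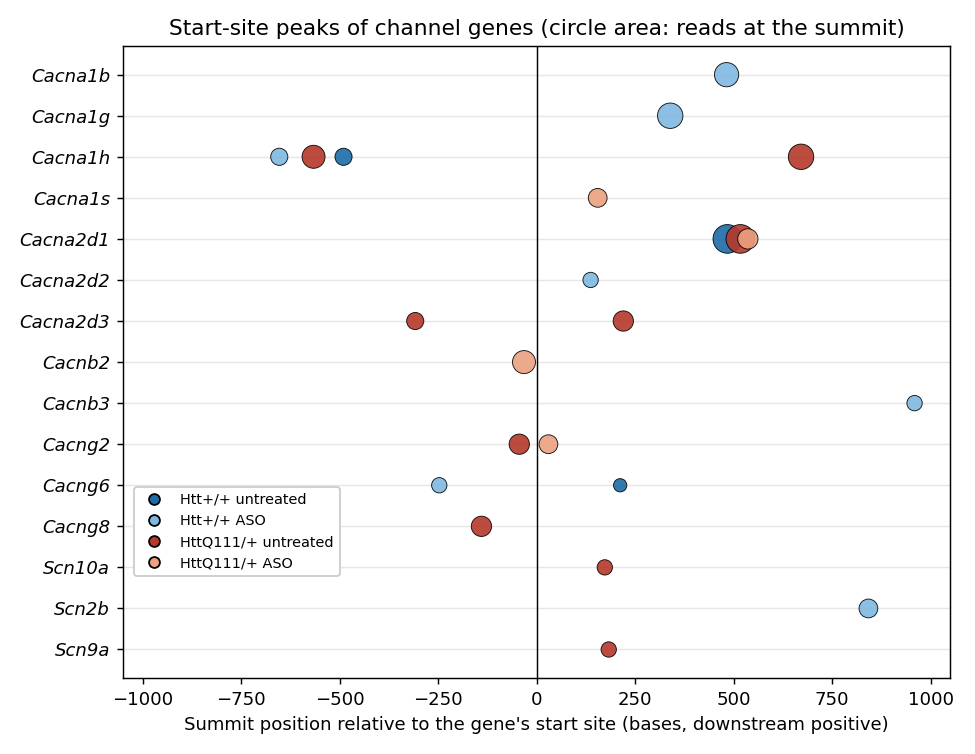
Position of each start-site peak summit (x axis, bases from the gene's start, downstream positive) for 15 of the 17 channel genes with one (y axis), coloured by library, with circle area proportional to the reads at the summit (3 to 14). The 3 Cacna2d1 summits lie between 484 and 536 bases downstream, and 3 of the 4 Cacna1h summits lie upstream at positions from -653 to -490.

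At 5 start sites there was a region where peaks of at least 2 libraries overlapped, here called a recurring region, which was 12.8% of the channel genes beside 11.6% of all genes. The sequences under 3 of them are shown because they carry recurring start-site signal of the set, each as 160 bases on the strand of the gene, 5′ to 3′, with CpG dinucleotides in capitals. In mm9 they are chr17:25571214-25571373 (minus strand) for Cacna1h, chr5:15440946-15441105 (plus) for Cacna2d1 and chr15:77950459-77950618 (minus) for Cacng2. Those of Cacna1h and Cacng2 lie upstream of the gene, and that of Cacna2d1 lies in an intron.
Cacna1h: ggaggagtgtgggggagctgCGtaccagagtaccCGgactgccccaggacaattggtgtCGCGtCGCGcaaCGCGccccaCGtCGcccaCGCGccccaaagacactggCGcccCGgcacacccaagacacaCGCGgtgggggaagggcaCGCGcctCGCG
Cacna2d1: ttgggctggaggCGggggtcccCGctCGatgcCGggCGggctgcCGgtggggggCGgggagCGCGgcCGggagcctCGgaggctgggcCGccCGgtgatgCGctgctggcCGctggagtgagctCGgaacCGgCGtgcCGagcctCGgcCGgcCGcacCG
Cacng2: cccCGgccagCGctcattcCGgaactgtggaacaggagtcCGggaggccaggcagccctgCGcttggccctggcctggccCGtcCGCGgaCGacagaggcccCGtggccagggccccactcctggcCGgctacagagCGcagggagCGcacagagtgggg
They held 20 CpGs in Cacna1h, 23 in Cacna2d1 and 13 in Cacng2, beside a median of 8 in 160 bases around the start of all 21287 genes and 7 around those of the 39 channel genes. GC content was 71.2% in Cacna1h, 80.6% in Cacna2d1 and 73.8% in Cacng2. The letters GGGCGG, searched on both strands, occurred 3 times in the Cacna2d1 stretch and in neither of the others, against 36.7% of all start sites with at least 1 match and 28.2% of those of the channel genes.

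Among the pore genes, Cacna1h, which encodes the T-type channel Cav3.2 that opens near rest, had a start-site peak in 3 libraries. Upstream of the start, fold enrichment over background was 3.43 from 5 reads in Htt+/+ untreated, 3.84 from 5 reads in Htt+/+ ASO and 7.68 from 9 reads in HttQ111/+ untreated cortex, with no peak in HttQ111/+ ASO. The highest value and a second peak, in a coding exon 671 bases downstream with 11 reads, both belonged to HttQ111/+ untreated cortex. Cacna2d1 encodes the α2δ-1 subunit, the binding site of gabapentin. Its start-site peak had 14 reads in Htt+/+ untreated (fold enrichment 5.78) and in HttQ111/+ untreated cortex (6.75), and 7 reads (2.46) in HttQ111/+ ASO, with none in Htt+/+ ASO. Both untreated libraries were thus higher than the ASO library that had a peak.

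Cacng2 (stargazin) had 7 reads at 4.02-fold in HttQ111/+ untreated and 6 reads at 2.84-fold in HttQ111/+ ASO cortex, at positions -44 and 30 from the start, and none in either Htt+/+ library. The Cacng6 peaks, from 3 reads in Htt+/+ untreated and 4 reads in Htt+/+ ASO cortex, lay on opposite sides of the start and did not overlap.

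The start site of the gene model is not the only annotated start of these genes. Counting every annotated transcript start raised the number of genes with a peak in 2 or more libraries from 6 to 10, by adding Cacna1a, Cacna1b, Cacna1c and Cacnb2. The same count was not obtained over all genes, so the rise has no background to stand beside. Counted in this way, Cacna1c had such a peak in 4 libraries and Cacna1a in 3. The Cacna1c summits did not all lie near the same transcript start, and none of its regions recurred in all 4 libraries. The Cacnb2 peaks counted here did not overlap. The strongest of the start-site peaks by fold enrichment was a single-library one at Cacng8, another TARP gene, with 11.8-fold from 7 reads at position -140 in HttQ111/+ untreated cortex and no start-site peak in the other 3 libraries.

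Gene bodies of the channel genes held more peaks than those of other genes of the same length in every library. There were 140, 112, 153 and 115 gene-body peaks, beside 89.9, 82.7, 97.4 and 86.9 for genes of similar length. The ratios were 1.56 (1.31 to 1.84), 1.35 (1.11 to 1.63), 1.57 (1.33 to 1.84) and 1.32 (1.09 to 1.59). Over the 4 libraries together the channel genes had 520 peaks where 356.9 would have matched, a ratio of 1.46 (1.33 to 1.59). The excess was smaller against genes matched on GC content as well. Against genes of similar length whose gene-body GC content lay within 2 percentage points, the ratios were 1.21, 1.19, 1.16 and 1.22, and 1.19 over all 4 libraries. The numbers that would have matched were then 115.5, 94.1, 131.7 and 94.3. No counting interval was calculated for the GC-matched ratios, so an excess beyond counting error is not shown for each library.

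These genes are long, with a median of 97648 bases beside 15623 for all genes. A gene-body peak was present in 28, 31, 31 and 29 of the 39, beside 37.2%, 33.9%, 39.3% and 33.1% of all genes and 26.7, 26, 27.3 and 26.4 of 39 for genes of similar length. In 2 or more libraries it was present in 34 (42.2% of all genes, 30.3 of 39 at similar length), and in all 4 libraries in 19 (13.1% of all genes, 16.2 at similar length). Only Cacng6 and Scn2b had none in any library.

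Of the 39, 24 had more gene-body peaks than the mean of genes of similar length, beside 42.6% of the 12928 genes of 10 kb or more. Those at 2 times that mean or more numbered 13, beside 10.9% of genes of 10 kb or more. With GC content matched as well, 23 lay above their mean and 1, Scn8a, reached 2 times.

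**Figure D2:**
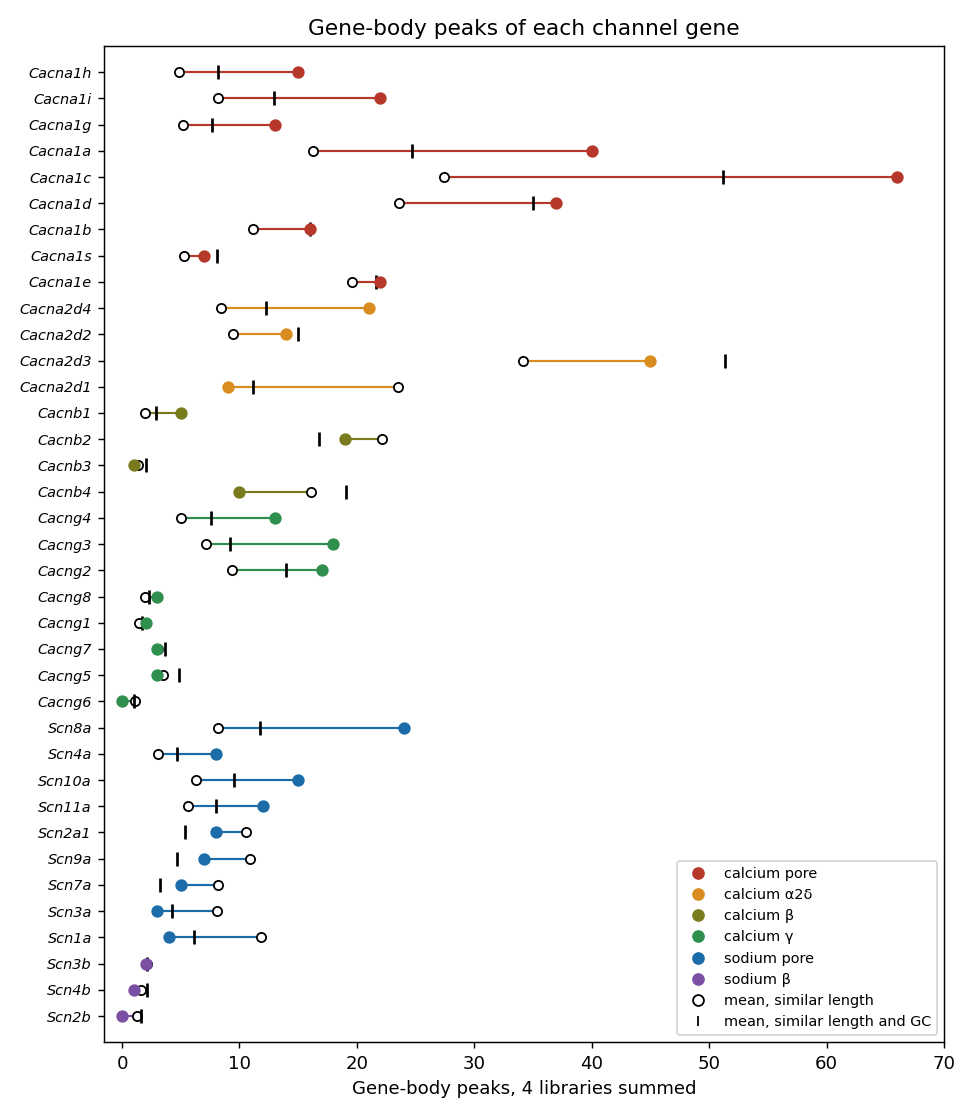
Gene-body peaks summed over 4 libraries for 37 of the 39 channel genes (filled circles, coloured by subunit class), with the mean of genes of similar length (open circles) and of genes of similar length and gene-body GC content (vertical ticks). All 9 calcium pore genes lie to the right of their open circle, from Cacna1e (22 against 19.6) to Cacna1c (66 against 27.4).

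The calcium channel pore genes carried most of the excess. All 9 lay above genes of similar length, and together they held 74, 46, 67 and 51 gene-body peaks beside 30.1, 28.3, 32.6 and 30.5. The class ratio was 2.46 (1.93 to 3.09), 1.62 (1.19 to 2.17), 2.06 (1.59 to 2.61) and 1.67 (1.2 to 2.2), and 1.96 (1.72 to 2.22) over all 4 libraries. It was 1.28 with GC content matched, for a median gene-body GC content of 49.2%.

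The T-type genes Cacna1g, Cacna1h and Cacna1i, which support burst firing, were the densest of the calcium pore genes at 19.8, 25.2 and 19.8 peaks per 100 kb over the 4 libraries. Cacna1h had 6, 4, 4 and 1 gene-body peaks, 15 in all where 4.88 would have matched (3.07 times). Its values were lowest in HttQ111/+ ASO cortex. Cacna1i (Cav3.3) had 9, 5, 5 and 3, or 22 beside 8.14 (2.7 times), with the highest value in Htt+/+ untreated cortex. Cacna1g (Cav3.1) had 0, 2, 7 and 4, or 13 beside 5.20 (2.50 times). It thus had none in Htt+/+ untreated cortex, where the other T-type genes were highest. Cacna1h overlaps Tpsg1 in the annotation, and peaks in the overlap cannot be assigned to 1 of them. The same holds for Cacna1c (with Dcp1b), Cacna1d (with Chdh and Dcp1a), Cacna2d1, Cacna2d3, Cacna2d4, Cacnb4 and Scn2b, each of which overlaps another annotated gene.

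Cacna1a encodes Cav2.1, the P/Q-type channel of fast transmitter release, in which a CAG expansion causes spinocerebellar ataxia. It had 9, 7, 15 and 9 gene-body peaks, or 40 beside 16.2 (2.46 times). Cacna1c, the L-type channel Cav1.2 of neurons and heart, had 23, 9, 14 and 20, or 66 beside 27.4 (2.41 times), the largest number of the set. Its Htt+/+ libraries differed by 14 peaks and its HttQ111/+ libraries by 6, in opposite directions with ASO. Cacna1d (Cav1.3, L-type) had 13, 7, 14 and 3, or 37 beside 23.6 (1.57 times), with fewer in both ASO libraries. Cacna1b (Cav2.2, N-type), Cacna1e (Cav2.3, R-type) and Cacna1s (the skeletal muscle channel Cav1.1) ranged from 1.12 to 1.43 times, and with GC content matched from 0.866 to 1.02 times.

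The auxiliary calcium channel subunits were uneven. The α2δ genes had 19, 18, 24 and 28 gene-body peaks, 1.18 times (0.947 to 1.45) the number for similar length over all 4 libraries. Within them Cacna2d4 had 4, 2, 8 and 7 (21 in all, 2.50 times), while Cacna2d1 had 0, 3, 0 and 6 (9 in all, 0.383 times). Cacna2d1 therefore combined a start-site peak in both untreated libraries with no gene-body peak in either. The β genes, whose products bind the pore from the inside, had 7, 7, 11 and 10 peaks (0.843 times, 0.587 to 1.17). The γ family had 16, 18, 18 and 7 (1.81 times, 1.38 to 2.34, and 1.33 with GC content matched). Within it Cacng4 had 4, 4, 4 and 1 peaks (2.60 times) and Cacng3 had 5, 6, 4 and 3 (2.51 times), both encoding TARPs of the brain, whereas Cacng6, a gene expressed mainly in muscle, had 0 where 1.09 would have matched.

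The sodium channel pore genes had 23, 22, 32 and 17 gene-body peaks, 1.18 times (0.952 to 1.44) the number for genes of similar length and 1.38 times with GC content matched. Scn1a, Scn2a1, Scn3a, Scn7a and Scn9a lie side by side on chromosome 2 with a median gene-body GC content of 38.8%. They had 4, 11, 8 and 4 peaks, or 27 beside 49.6 for genes of similar length (0.545 times, 0.359 to 0.793) and 23.7 with GC content matched (1.14 times). Scn1a, the channel of inhibitory neurons altered in Dravet syndrome, had 0, 3, 1 and 0 peaks (0.338 times). Scn3a, active mainly in the embryonic brain, had 1, 1, 0 and 1 (0.372 times), yet its Htt+/+ ASO peak, 10.9-fold from 7 reads in an intron, was the strongest channel gene peak of that library by fold enrichment. This grouping by position was chosen after the values were seen.

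Scn8a, which encodes the Nav1.6 channel of the axon initial segment, was the opposite case. It had 7, 5, 9 and 3 gene-body peaks, 24 in all where 8.18 would have matched (2.94 times) and 11.8 with GC content matched (2.04 times), the highest GC-matched ratio of the 39. Scn4a, the skeletal muscle channel, had 1, 1, 2 and 4 peaks (2.61 times). The sodium β genes are short and had 1, 1, 1 and 2 peaks in all, with 0 in Scn2b.

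**Figure D3:**
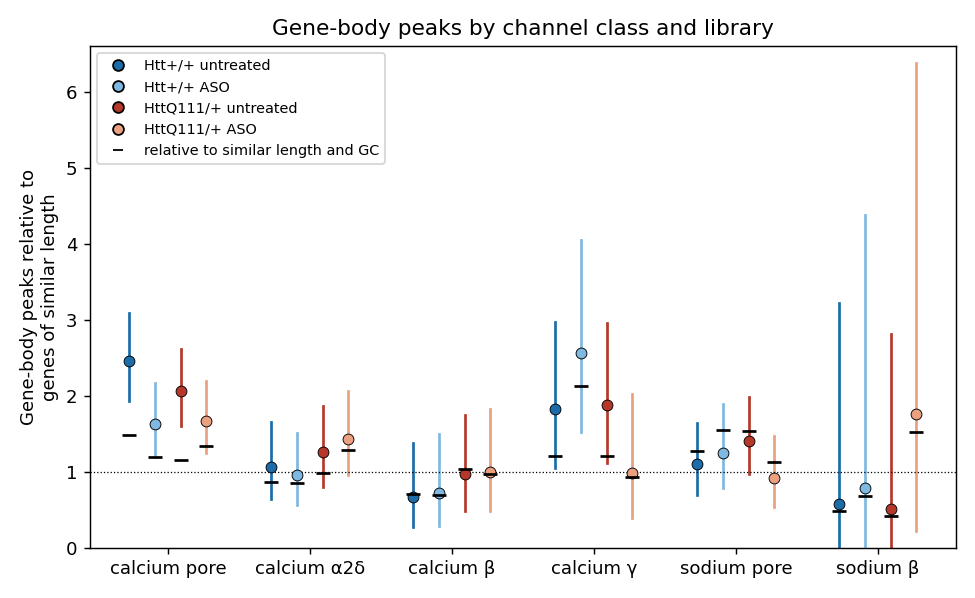
Gene-body peaks of each subunit class in each library relative to genes of similar length (y axis, ratio), with 95% counting intervals (vertical lines) and the ratio to genes of similar length and GC content (black dashes). The calcium pore class lies above 1 in all 4 libraries, from 1.62 to 2.46, and the γ class in 3 of 4, with 0.979 in HttQ111/+ ASO.

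The genes were also grouped by main tissue, with all but 9 taken as genes of the brain. Those 30 genes had 456 gene-body peaks (1.48 times those of genes of similar length, 1.35 to 1.62). The 9 genes known mainly from muscle, heart or peripheral sensory neurons had 64 (1.31 times, 1.01 to 1.67). With GC content matched the values were 1.19 and 1.24, so the order of the groups turned. No interval was calculated for these values, and the difference between the groups was not tested.

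Gene-body GC content moved with the ratio to genes of similar length. Across the 39 genes Pearson's r was 0.519 and Spearman's rho 0.529, and across 12928 genes of 10 kb or more they were 0.446 and 0.463, described here without a test because genes share libraries, depth and base composition. Channel genes in the range from 46% to 48% GC had a median ratio of 2.13 (7 genes) where all genes in that range had 1.23. Those above 50% GC had 2.15 (12 genes) where all had 1.33. At the low end the ranges differed. Up to 38% GC the channel median was 0.612 (3 genes) beside 0.249 for all genes, and from 38% to 40% it was 0.372 (3 genes) beside 0.427. The part of base composition in the higher peak number was not tested beyond the match on GC content.

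**Figure D4:**
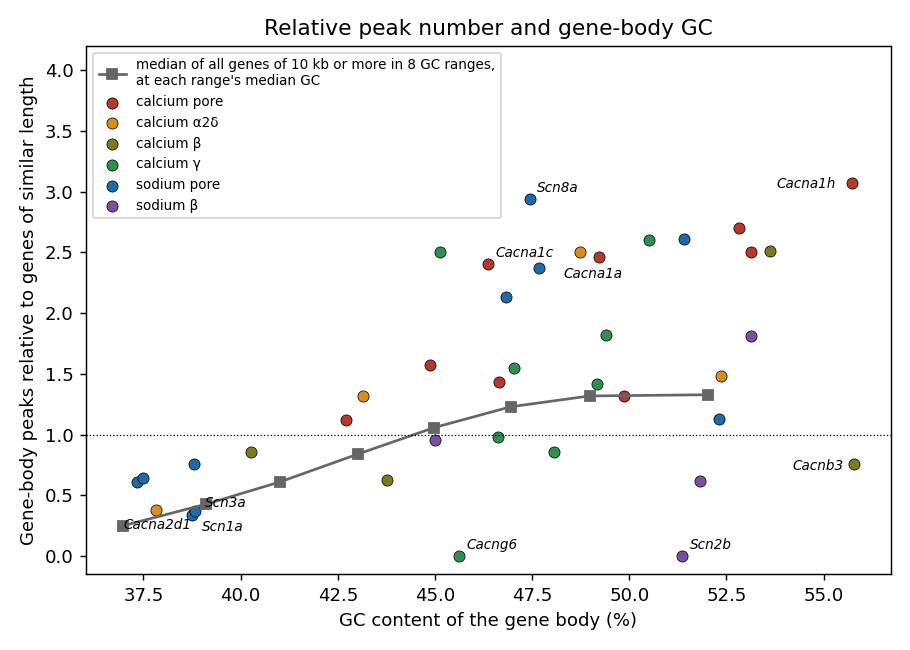
Gene-body peaks over 4 libraries relative to genes of similar length (y axis, ratio) against the GC content of the gene body (x axis, %), for the 39 channel genes by class and as the median of all genes of 10 kb or more in 8 ranges of GC content (squares). The line of all genes runs from 0.249 to 1.33, and Scn8a (2.94) and Cacna1h (3.07) lie above it.

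The excess was larger among better supported peaks. Counting summits of 5 or more reads, the channel genes had 112 gene-body peaks over 4 libraries beside 45.0 for genes of similar length (2.49 times, 2.05 to 3.0) and 79.0 with GC content matched (1.42 times). The calcium pore genes held 65 of them beside 13.0 (5.0 times, 3.86 to 6.37) and 33.7 with GC content matched (1.93 times). These lay mainly in Cacna1a (14), Cacna1c (13), Cacna1i (10), Cacna1h (9) and Cacna1g (8), and each of the 9 pore genes had at least 1. The γ family showed no such excess, with 5 beside 6.20 (0.806 times), so its higher number came from peaks of fewer reads. Among the sodium pore genes there were 20 beside 12.0 (1.67 times), of which 6 were in Scn8a.

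Coding exons held 61 of the 520 gene-body summits, or 11.7% (Wilson interval 9.24 to 14.8), although they make up 2.57% of the bases of these genes. Matched on length alone, other genes would have held 24.6 summits in coding exons, so the channel genes had 2.48 times that number. The share over all genes was 12.1%, with 3.56% of bases coding. In the calcium pore genes it was 17.2% (13.0 to 22.5), led by Cacna1a with 8 summits, Cacna1h and Cacna1i with 7 each and Cacna1c with 6. In the sodium pore genes it was much the same, at 17.0% (10.8 to 25.9), with 5.34% of their bases coding and 2.92% in the calcium pore genes. In the last 10% of the gene lay 13.5% (10.8 to 16.7) of the channel gene summits and 12.2% of those of all genes.

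Recurring regions lay in 22 of the 39 genes (26.6% of all genes, 18.1 of 39 at similar length), and in the gene body of 18 (17.5% of all genes, 14.5 at similar length). The genes held 50 such regions, 5 at the start site and 45 in the gene body, where genes of similar length would have had 30.0, and 36.9 with GC content matched. Of the 50, 13 drew on 3 libraries, 37 on 2 and 0 on all 4. The calcium pore genes held 27 of them, of which 6 were in Cacna1h, 5 in Cacna1c and 4 each in Cacna1a, Cacna1g and Cacna1i. Coding exons held 12 of the 50, with no such share over the recurring regions of all genes to set beside it. Without HttQ111/+ untreated cortex the number of genes was 14 in place of 22, and leaving out 1 of the other libraries gave 17 or 18.

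**Figure D5:**
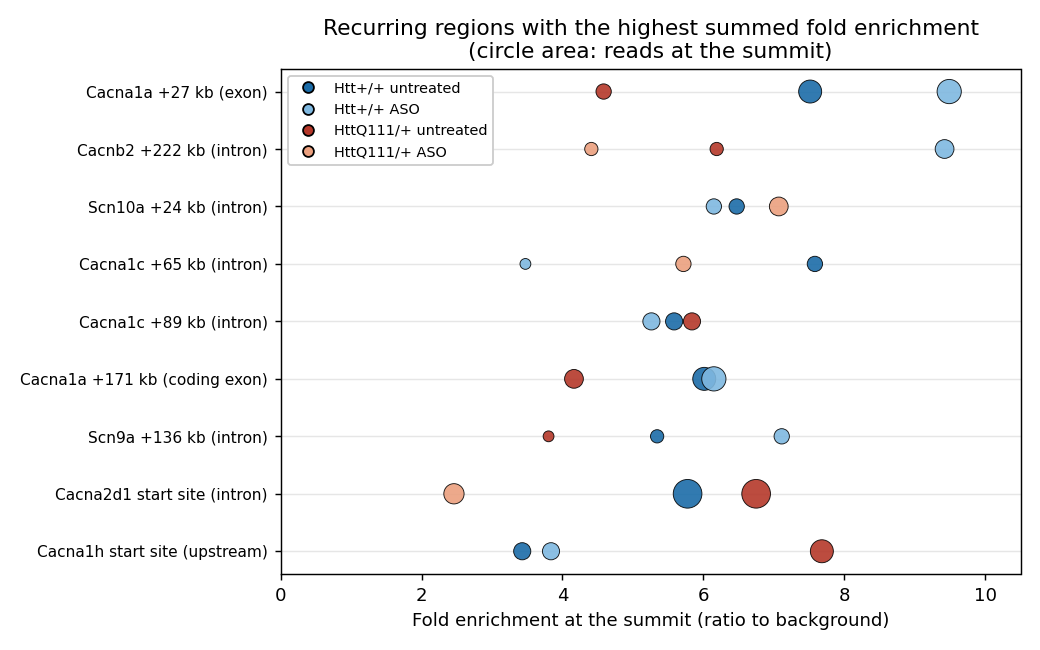
Fold enrichment at the summit (x axis, ratio to background) in each library for 9 of the 10 recurring regions with the highest sum (y axis, with the distance from the gene's start and the place of the highest summit), with circle area proportional to the reads. None of the 9 has a peak in all 4 libraries, and the Cacna1a region 27 kb into the gene reaches 7.51 and 9.49 in the Htt+/+ libraries.

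Cacna1a held the recurring region with the highest summed fold enrichment. It reached 7.51 from 9 reads in Htt+/+ untreated, 9.49 from 10 reads in Htt+/+ ASO and 4.58 from 4 reads in HttQ111/+ untreated cortex, with no peak in HttQ111/+ ASO. Its summit lay in an exon 46 bases from the start of another annotated transcript. A second region of Cacna1a, in a coding exon far into the gene, reached 6.01 from 9 reads, 6.15 from 10 reads and 4.16 from 6 reads in the same 3 libraries. In both regions the Htt+/+ libraries were the higher ones. The sequence of the second is shown because it is recurring signal in coding DNA, with CpG in capitals, from chr8:87083407-87083566 (mm9, plus strand).
Cacna1a, coding exon: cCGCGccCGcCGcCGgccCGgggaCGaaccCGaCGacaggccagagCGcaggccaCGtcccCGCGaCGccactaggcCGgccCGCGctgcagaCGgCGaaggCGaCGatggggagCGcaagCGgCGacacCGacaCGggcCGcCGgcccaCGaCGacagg
It held 30 CpGs at a GC content of 78.8%, in a gene of 49.2% GC.

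The next regions lay in an intron in Cacnb2 and at the edge of an intron in Scn10a, and had fewer CpGs. In Cacnb2, whose product is the β2 subunit, fold enrichment was 9.42 from 6 reads in Htt+/+ ASO, 6.19 from 3 reads in HttQ111/+ untreated and 4.41 from 3 reads in HttQ111/+ ASO cortex. In Scn10a, the sensory neuron channel Nav1.8, it was 6.47 from 4 reads in Htt+/+ untreated, 6.15 from 4 reads in Htt+/+ ASO and 7.07 from 6 reads in HttQ111/+ ASO cortex. The Htt+/+ untreated summit of Scn10a fell in a coding exon and those of both ASO libraries in the intron beside it. The 3 Scn10a values spanned less than 1 unit of fold enrichment. The stretches at chr2:14747853-14748012 (plus) and chr9:119579625-119579784 (minus, mm9) follow, to show how they differ from the CpG-rich ones.
Cacnb2, intron: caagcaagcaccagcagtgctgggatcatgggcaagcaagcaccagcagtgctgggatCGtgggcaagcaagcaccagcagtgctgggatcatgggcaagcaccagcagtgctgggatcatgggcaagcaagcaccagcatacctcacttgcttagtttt
Scn10a: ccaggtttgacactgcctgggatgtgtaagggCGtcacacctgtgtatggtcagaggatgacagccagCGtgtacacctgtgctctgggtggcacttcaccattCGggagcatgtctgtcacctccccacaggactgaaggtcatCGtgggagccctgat
The Cacnb2 stretch is a tandem repeat. Shifted by 32 bases against itself it matched at 68.8% of positions, whereas the best shift of the other sequences examined matched at 33.9% to 50.5%. It held 1 CpG and that of Scn10a held 4.

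A pair of regions in Cacna1c drew on 3 libraries each. The one 65014 bases from the start had 7.58 from 4 reads in Htt+/+ untreated, 3.47 from 2 reads in Htt+/+ ASO and 5.72 from 4 reads in HttQ111/+ ASO cortex. The one 88540 bases from the start had 5.58, 5.26 and 5.84, from 5 reads each, in Htt+/+ untreated, Htt+/+ ASO and HttQ111/+ untreated cortex, the most even values of the 9. In Scn9a, the pain-related channel Nav1.7, a region 135870 bases from the start had 5.34 from 3 reads in Htt+/+ untreated, 7.11 from 4 reads in Htt+/+ ASO and 3.80 from 2 reads in HttQ111/+ untreated cortex. By fold enrichment, the strongest single peaks of the other libraries lay in introns of Scn8a in Htt+/+ untreated (8.57-fold, 5 reads) and of Cacna1d in HttQ111/+ ASO cortex (8.33-fold, 6 reads).

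Whether lowering HTT changed these peaks was asked by setting ASO beside untreated cortex in each genotype. Peaks at the start site or in the body of the channel genes numbered 144 in Htt+/+ untreated and 121 in Htt+/+ ASO cortex, a ratio of 0.840 (0.660 to 1.07). For HttQ111/+ there were 165 without and 120 with ASO, a ratio of 0.727 (0.575 to 0.920). The same ratios were 0.912 and 0.683 over all genes and 0.951 and 0.825 over genes of similar length, all inside the intervals of the channel genes. Gene-body peaks were fewer with ASO in 14 of the 34 channel genes with one in either Htt+/+ library (47.3% of all such genes), and in 22 of 34 in HttQ111/+ (51.4%).

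Start-site peaks went in opposite directions with ASO. Genes with one numbered 4 without and 9 with ASO in Htt+/+, and 9 without and 5 with ASO in HttQ111/+. Among all genes the shares were 12.9% and 16.4% in Htt+/+, and 18.5% and 4.01% in HttQ111/+, in the same directions. The calcium pore genes had 46 gene-body peaks in the ASO library of Htt+/+ mice where the untreated one had 74, and 51 against 67 for HttQ111/+. Over all genes, gene-body peaks with ASO were 0.857 times the untreated number in Htt+/+ and 0.779 times in HttQ111/+. Over genes similar in length to the channel genes the values were 0.920 and 0.893. Genes matched to the calcium pore genes on length and GC content would have given 38.7 with ASO and 50.1 without in Htt+/+. In HttQ111/+ they would have given 38.3 with ASO and 58.3 without, so these numbers too were lower with ASO. The difference in the calcium pore genes was not tested. Between genotypes, the ratio of HttQ111/+ to Htt+/+ was 1.15 (0.917 to 1.43) in untreated and 0.992 (0.771 to 1.28) in ASO cortex. Gene-body peaks were fewer in HttQ111/+ in 12 of 34 genes without ASO (37.3% of all such genes) and in 18 of 36 with ASO (42.9%). The comparisons share libraries and are not independent.

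Partners of the channels and genes of intracellular calcium handling, a list of 41 of which 40 were found on chromosomes 1 to 19, gave a ratio near 1. They had 492 gene-body peaks beside 503.5 for genes of similar length (0.977 times), with 23 above their mean and 6 at 2 times or more (42.6% and 10.9% of genes of 10 kb or more). Of the 40, 10 had a start-site peak in 2 or more libraries (12.8% of all genes) and 22 a recurring region (26.6% of all genes). Hcn4 and Hcn2, pacemaker channel genes, had the highest ratios at 2.76 and 2.73, followed by Slc8a2 (a sodium-calcium exchanger, 2.19), Itpr2 and Ryr1 (calcium release channels, 2.14 each) and Nedd4l (a ubiquitin ligase of sodium channels, 2.06). Ank3, whose product ankyrin-G anchors sodium channels at the axon initial segment, was at 1.24 times.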

How the data were processed

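HTT ChIP-seq peak lists of 4 cortical libraries were analysed. Per the labels and methods, the authors aligned reads with HISAT2 and called peaks per ChIP library with MACS2 against merged inputs, after sampling the ChIP libraries down to the smallest. The HISAT2 version is not given in the sources used here. The deposited columns hold a fold enrichment ratio at the summit, −log10 p-values, −log10 q-values and a score of 10 times the −log10 p-value. The labels name mm9 and the methods mm10. Of 6922 summits with 8 or more reads, 62.4% lay within 1 kb of a gene end in mm9 and 7.69% with GRCm38 positions, so mm9 was used. Reads at each summit were recovered with 1 scaling factor per library (whole numbers gave the deposited −log10 p-value to 0.01 at 100% of peaks), and the search was tested on simulated data. The factors were 3.23, 2.97, 3.30 and 2.67 in the order used above. Because they differ, it is not shown that the deposited lists come from libraries of equal size.

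A summit was placed at every gene it fell in. Both records of Scn8a were joined. All deposited peaks were used. Regions recurred where peaks of 2 or more libraries overlapped by 1 base. Intervals are Wilson for shares, exact Poisson for ratios to genes of similar length and Wilson-based for ratios between libraries. Named in full were genes with a start-site peak in 2 or more libraries, the 8 genes with the highest recurring region, the 5 with most and the 5 with fewest gene-body peaks relative to genes of similar length, and the strongest peak of each library. Members and lists were chosen with earlier results of these data known. Some members and sequences are not reported here. Alternatives covered q, reads, windows, matching and overlap. Tools were pysam 0.24.0, scipy 1.17.1, pandas 2.3.3, matplotlib 3.10.9 and numpy 2.4.6 in Python 3.11.15.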

Additional observations from a re-analysis of the deposited data

Results flagged for a closer look

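Each result below was singled out because ASO and untreated cortex differed in opposite directions in the 2 genotypes. None of these differences was tested. With 1 library in each group no spread within a group is known. The number of channel genes with a start-site peak differed with ASO by 5 in Htt+/+ (9 against 4) and by -4 in HttQ111/+ (5 against 9). The number of their start-site peaks differed by 5 in Htt+/+ (9 against 4) and by -7 in HttQ111/+ (5 against 12). Gene-body peaks of the α2δ genes differed by -1 in Htt+/+ (18 against 19) and by 4 in HttQ111/+ (28 against 24). Gene-body peaks of the γ genes differed by 2 in Htt+/+ (18 against 16) and by -11 in HttQ111/+ (7 against 18). The HttQ111/+ ASO library had start-site peaks at 4.01% of all genes beside 12.9% to 18.5% in the others, and the part of this in the values above was not tested.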

How the results depend on the processing

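ASO and untreated libraries were compared within each genotype, but no test with genotype as a block was made. Of 117 recalculations, 93 stayed near the reported value, 18 moved and 6 turned direction. With at least 5 reads at the summit, start-site peaks were found at 5 genes in Htt+/+ ASO (9 with all peaks), recurring regions in 11 genes (22), and the ratios of gene-body peaks to genes of similar length were 2.75, 2.11, 2.13 and 3.16 in the 4 libraries and 2.49 together. Counting any transcript start gave 8 genes in Htt+/+ untreated (4) and 10 genes in 2 or more libraries (6), without the same count over all genes. A window of 500 bases gave 3 genes in HttQ111/+ ASO (5). The gene-body ratio was 1.28 in Htt+/+ untreated, 1.27 in HttQ111/+ untreated and 1.2 together from peak density over all gene bodies, and 1.21, 1.16 and 1.19 with GC content matched. Leaving out 1 library at a time, recurring regions lay in 14 to 18 genes, start-site peaks in 2 or more libraries at 4 or 5 genes, and the summed ratio ranged from 1.41 to 1.5 (chosen after seeing the data, as was the combined match on reads and GC content).

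Between libraries, the HttQ111/+ to Htt+/+ ratio with ASO, 0.992, lay close to 1 and became 1.09 at a q under 0.01, 1.06 for peaks of 3 or more reads, 1.2 for peaks of 5 or more, 1.03 for gene-body peaks and 1.0 after division by the ratio of all peaks. The ASO to untreated ratio in HttQ111/+ became 1 with at least 5 reads. In Htt+/+ it became 1.13 when genes with any peak were counted. The cause was not tested. The depth of 2 to 4 reads at most summits limits every statement on a single peak.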

Other observations

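Cacna1f, the retinal L-type channel gene on chromosome X (chrX:7184209-7212322, mm9), lay outside the chromosomes examined. It had 1 gene-body peak in Htt+/+ untreated cortex and 0 in the other 3 libraries, and no start-site peak in any library.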
